A study of Sus scrofa with 27 samples.

Results

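The early response of pig lungs to standard ex vivo lung perfusion (EVLP) was measured by RNA-seq of biopsies taken at 0h and at 6h of perfusion in the Gold Standard (GS) group. The comparison was chosen by its labels, GS libraries at 6h against GS libraries at 0h, and holds 10 of the 27 libraries of the series, from 5 Large-White pigs numbered 9, 17, 44, 55 and 77 that each gave 1 biopsy per time, so every change was read within the same lung. The lungs came from a non-heart-beating donor model, in which circulation has stopped before the organ is taken, and were kept cold before EVLP. The 0h biopsy was taken at the end of that cold ischemia, and it is therefore lung after donor death and cooling, not lung from a living animal. All groups then received warm, ventilated perfusion by the Toronto protocol with Steen solution carrying methylprednisolone (a glucocorticoid), cefuroxime and heparin, through a circuit with a leukocyte filter. In GS a part of the Steen solution was replaced at regular intervals. In the Pediatric Dialysis (PD) group (pigs 2, 3, 4 and 5), used here for 1 comparison only, the circuit was dialyzed. Some biopsies were frozen and others were kept in RNAlater, with a different RNA extraction for each, and which library had which is not given in the sources used here.

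EVLP keeps a donor lung ventilated and perfused outside the body so that it can be assessed and treated before transplantation. When a cold, unperfused lung is warmed and perfused again, its vessel lining, its alveolar epithelium and its resident macrophages meet flow, stretch, oxygen and an artificial fluid at the same time. Such tissue is known to switch on stress and inflammatory genes within hours, among them immediate early transcription factors, NF-kB targets, heat shock and amino acid response genes, while the added steroid acts through the glucocorticoid receptor.

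The 10 libraries held 26.3M to 62.3M counts on genes (M, mega). The libraries of pigs 9 and 17 (26.3M to 41.8M) were shallower than those of pigs 44, 55 and 77 (53.6M to 62.3M). Mitochondrially encoded genes took 6.05% ± 2.32 of counts at 0h and 6.78% ± 2.45 at 6h (mean ± SD, 5 pigs, exact paired permutation p = 0.25, two-sided, where 0.0625 is the smallest p that 5 pairs allow). The TMM scaling factor was lower at 6h in 5 of 5 pigs (exact paired permutation p = 0.0625). The tissue label was borne out by lung genes: the surfactant protein genes SFTPC (3105, 5086, 3884, 4099 and 3817 CPM at 0h in pigs 9, 17, 44, 55 and 77) and SFTPA1 (2731, 2338, 3843, 2683 and 4079 CPM) were highly expressed in every library. Values in CPM are counts relative to the library total, scaled by TMM (trimmed mean of M values), and values for several pigs are always given in the order 9, 17, 44, 55 and 77.

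The first 6h of GS EVLP changed the level of about 1 in 9 measured genes, with rises and falls in similar number. Of 18594 genes tested, 2057 were called (11.1%), 1023 up (5.50%) and 1034 down (5.56%). A call here means a Benjamini-Hochberg adjusted p under 0.05 in edgeR's quasi-likelihood F test, with the pig as a block, and a fold change of at least 2. With the adjusted p alone, 5295 genes (28.5%) differed. The rises were larger than the falls at the extreme: 217 called rises reached 4-fold and 61 reached 8-fold, against 103 and 7 of the falls. Among called genes, 887 rises and 934 falls had the same direction in all 5 pigs, and for 513 of the called rises and 519 of the called falls every 6h library lay beyond every 0h library. Over all tested genes, such a lack of overlap was seen in 5.44% with the higher level at 6h and in 5.56% with the lower. Long non-coding RNAs were called more often than protein-coding genes, with 8.84% of 2014 called up and 9.73% called down against 4.68% and 5.11% of 15698. Without the pig as a block 1123 genes were called, and without pig 44 the count was 1318.

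**Figure D1:**
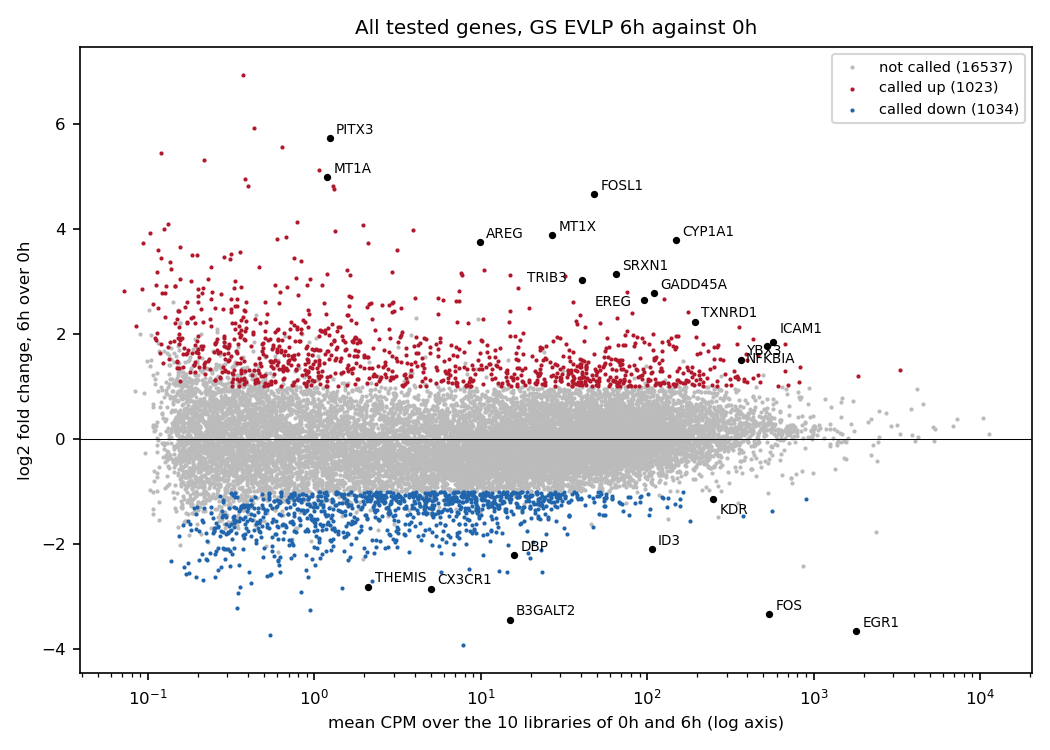
Each point is 1 of the 18594 tested genes, with its mean CPM over the 10 libraries on a log axis and its fitted log2 fold change at 6h over 0h. Red points are the 1023 genes called up, blue points the 1034 called down, and black points are genes named in the text. The upper edge of the cloud reaches farther from 0 than the lower edge, and EGR1 and FOS stand out as highly expressed genes that fell.

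The 5 lungs did not respond as 1 uniform group. Across the tested genes, the log2 ratios of pigs 9 and 17 correlated with each other (r = 0.58) and those of pigs 44, 55 and 77 with one another (0.61 to 0.71), while the correlations between the sets were 0.25 to 0.32 (across genes that share libraries, as a description). The sets also differ in sequencing depth, as given above, and depth and any other difference between these pigs cannot be told apart. Fitted alone, pigs 44, 55 and 77 gave 2760 calls, 8.03% of the genes tested up and 6.55% down, and pigs 9 and 17 gave 876, 2.81% up and 2.24% down. These sets were formed after the ratios had been seen, so the counts of calls within a set given below describe this division and do not test it, and they come from fits of unequal size. Some gene groups for which the sets moved in opposite directions are named below with the values of each pig. More of the lists below had medians under 0 in pigs 9 and 17 and above 0 in the others. Among them were the MAPK regulator, alveolar type 1, prostaglandin, MHC class II, endothelial identity and collagen lists.

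The smallest p of all genes belonged to GADD45A (ENSSSCG00000037066, chromosome 6, 144940702 to 144944249, minus strand of Sscrofa11.1), which encodes a stress sensor that slows the cell cycle. Its level was 28, 27.3, 33.1, 27 and 23.1 CPM at 0h and 136, 166, 228, 214 and 221 CPM at 6h. All 5 lungs rose and the times did not overlap (log2 fold change 2.77 ± 0.16, adjusted p = 3.0e-06). TXNRD1, the thioredoxin reductase that keeps thioredoxin reduced, went from 76.4, 61.9, 68, 63.1 and 66.9 CPM to 308, 239.9, 353, 254 and 442 CPM. It rose in all pigs without overlap (log2 fold change 2.24 ± 0.18, adjusted p = 5.7e-05). YBX3, a cold shock domain protein that binds RNA and DNA, was at 245, 142, 180.0, 171 and 204 CPM before and 609, 333, 585, 507 and 672 CPM after. It rose in all pigs without overlap (1.51 ± 0.12, adjusted p = 5.4e-05). RBM3, the cold-inducible RNA-binding protein, also rose (1.3 ± 0.11, adjusted p = 5.7e-05), and it was chosen after its values were seen.

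**Figure D2:**
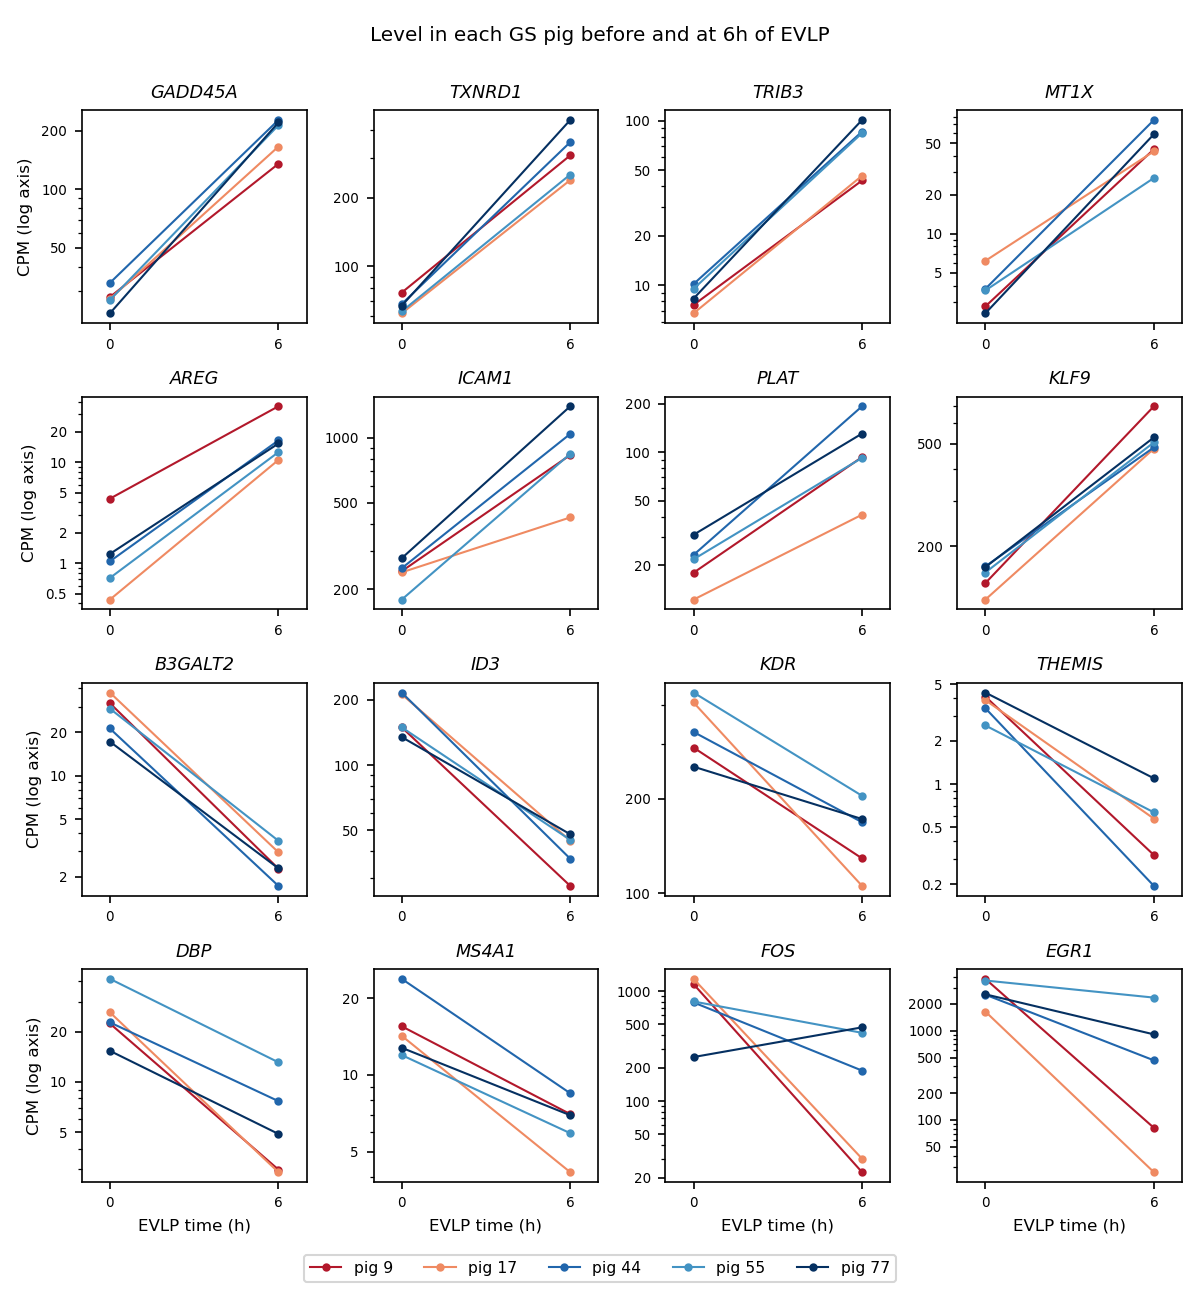
Each panel is 1 gene, with CPM on a log axis at 0h and 6h and 1 line per GS pig. The first 8 genes rose and the next 8 fell in the fit. The lines of pigs 9 and 17 run with the others for GADD45A, TXNRD1 and ID3, and fall much more steeply for EGR1 and FOS.

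Among genes with a symbol, the largest rises began from very low levels. The genes with the largest changes, here and for each list below, were chosen among those with the same direction in all 5 pigs, so that direction is a condition of the choice and no support. PITX3, a homeobox transcription factor, had 0, 1, 5, 0 and 6 counts at 0h and 54, 144, 66, 146 and 159 at 6h (log2 fold change 5.74 ± 0.70, adjusted p = 0.00032). With 0h counts this low the size of its fold change rests on few reads. The metallothionein gene MT1A, whose product binds zinc and copper, went from 0.0681, 0.156, 0.0454, 0.0912 and 0.0475 CPM to 2.83, 2.04, 2.68, 1.88 and 2.06 CPM. The more abundant MT1X, which the annotation describes as a metallothionein-2A, went from 2.76, 6.2, 3.77, 3.66 and 2.44 CPM to 44.9, 43.3, 75.5, 27 and 58.6 CPM. Both rose in every lung without overlap (4.99 ± 0.49, adjusted p = 0.00011 and 3.89 ± 0.43, adjusted p = 0.00021). The metallothionein genes are near-identical neighbors on chromosome 6, so the share of each in the rise is uncertain. Some annotated spans of this cluster overlap, but those of MT1A (18660642 to 18673766) and MT1X (18645059 to 18646033) do not. ACTRT3 (4.83 ± 0.60), an actin-related protein gene, NPTX2 (3.96 ± 0.53), a neuronal pentraxin, CRHR1 (3.59 ± 0.54), a receptor of corticotropin-releasing hormone, SOWAHA (3.23 ± 0.61) and MSX2 (3.16 ± 0.43), a homeobox factor, also rose from low levels.

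The other large rises of this set follow here, and AREG is given below with the EGF receptor ligands. FOSL1, an AP-1 subunit, went from 6.34, 0.747, 1.12, 4.06 and 1.93 CPM to 47, 5.73, 147, 90.7 and 177 CPM, with the highest 6h levels in pigs 44, 55 and 77 (log2 fold change 4.66 ± 0.73, adjusted p = 0.001). CYP1A1, the classic target of the aryl hydrocarbon receptor, varied widely, from 17.5, 1.84, 47, 0.927 and 2.77 CPM to 477, 763, 109, 34.5 and 27.9 CPM. It was higher at 6h in every pig, but the levels of the times overlapped (3.79 ± 1.17, adjusted p = 0.032), and its call was lost without pig 9, 17 or 55 (adjusted p = 0.094, 0.088 and 0.078). PDCD6-AHRR, a read-through locus holding the receptor's repressor AHRR, went from 1.81, 2.27, 1.72, 1.17 and 1.68 CPM to 23.3, 42.9, 12.3, 4.4 and 13.7 CPM without overlap (3.21 ± 0.46, adjusted p = 0.00062).

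Among genes with a symbol, the largest falls included transcription factors, a glycosyltransferase and lymphocyte genes. B3GALT2, a beta-1,3-galactosyltransferase, fell from 31.6, 37.5, 21.2, 29 and 17.2 CPM to 2.28, 2.95, 1.73, 3.55 and 2.29 CPM. No 6h library reached any 0h library, and it had the smallest p of the falls (log2 fold change -3.44 ± 0.32, adjusted p = 0.0001). THEMIS, a T-cell signaling protein, went from 4.09, 3.86, 3.39, 2.57 and 4.36 CPM to 0.319, 0.573, 0.194, 0.634 and 1.1 CPM (-2.81 ± 0.32, adjusted p = 0.00024). CX3CR1, the fractalkine receptor of monocytes and cytotoxic lymphocytes, went from 4.26, 6.32, 15.9, 9.999 and 7.62 CPM to 1.52, 1.47, 1.46, 0.541 and 1.38 CPM (-2.85 ± 0.53, adjusted p = 0.0025). ZNF683, a transcription factor of tissue-resident lymphocytes, went from 23.7, 15.1, 22.5, 16.7 and 40.4 CPM to 1.52, 2.06, 2.8, 8.43 and 10.3 CPM (-2.53 ± 0.35, adjusted p = 0.00055). These lymphocyte and monocyte genes fell in each of the 5 lungs without overlap. ADGRG5, an adhesion receptor expressed by leukocytes, fell alike (-1.78 ± 0.18, adjusted p = 0.00013). The set of largest falls also held HTR2C (-2.7 ± 0.49), a serotonin receptor, MYBPH (-2.52 ± 0.47), a myosin-binding protein, HSPA1L (-2.52 ± 0.41), PIGE-108A11.3 (-2.83 ± 0.45), SOSTDC1 (-2.47 ± 0.70), a secreted BMP and WNT inhibitor, and the zinc finger genes ZNF404 (-2.4 ± 0.46) and ZNF891 (-2.53 ± 0.60). The call of SOSTDC1 was lost without pig 9 or 17 (adjusted p = 0.0509 and 0.1).

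Many zinc finger genes were lower at 6h. This was noticed in the values, not in a list chosen for it: of 258 tested genes named ZNF and a number, 60 were called down and 5 up, or 23.3% down against 5.56% of all genes, with a median log2 fold change of -0.47 against -0.05 over all genes. The median log2 ratio of these genes was -0.092 in pig 9 and -0.17 in pig 17, and -0.61, -0.68 and -0.65 in pigs 44, 55 and 77. Many zinc finger proteins of this kind are transcriptional repressors. By the length of the longest RefSeq transcript, 2.53% of the shortest 1 in 5 genes and 5.65% of the longest 1 in 5 were called down, and 5.64% and 3.34% were called up. The median length of the ZNF genes was 4553 bases, in the fourth of these classes, of which 4.79% were called down. From the shortest to the longest class the median log2 ratio went from -0.11 to 0.091 in pig 9 and from 0.074 to -0.023 in pig 17, and from 0.13 to -0.22, 0.043 to -0.11 and 0.043 to -0.24 in pigs 44, 55 and 77. The part of transcript length in the zinc finger result was not tested.

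The promoters of 6 genes described here are shown because each holds, within 250 bases upstream of the RefSeq gene start, the motif marked in it. Sequences are from the RefSeq Sscrofa11.1 genome, read 5′ to 3′ on the gene's strand, with motif matches on either strand in capitals. NF-kB motifs (GGANTTTCC) are marked in IL6 at chr9:91506171-91506420 (plus strand) and in NFKBIA at chr7:64507869-64508118 (plus strand), a cAMP response element (CRE, TGACGTCA) in AREG at chr8:70417685-70417934 (plus strand), ATF4 composite elements (TGATGNAA) in SLC7A11 at chr8:88607833-88608082 (plus strand) and CHAC1 at chr1:130363333-130363582 (minus strand), and metal response elements (TGCGCNC) in MT1A at chr6:18671766-18672015 (plus strand).
IL6: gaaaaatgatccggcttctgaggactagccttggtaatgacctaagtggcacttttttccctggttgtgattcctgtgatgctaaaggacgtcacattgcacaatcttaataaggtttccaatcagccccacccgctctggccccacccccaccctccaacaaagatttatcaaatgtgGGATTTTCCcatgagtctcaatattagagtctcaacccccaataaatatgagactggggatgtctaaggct
NFKBIA: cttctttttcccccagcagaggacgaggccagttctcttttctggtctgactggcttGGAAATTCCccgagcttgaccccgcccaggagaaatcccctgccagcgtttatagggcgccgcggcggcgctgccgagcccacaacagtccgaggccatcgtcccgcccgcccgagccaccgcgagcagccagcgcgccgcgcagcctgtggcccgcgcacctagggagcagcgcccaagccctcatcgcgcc
AREG: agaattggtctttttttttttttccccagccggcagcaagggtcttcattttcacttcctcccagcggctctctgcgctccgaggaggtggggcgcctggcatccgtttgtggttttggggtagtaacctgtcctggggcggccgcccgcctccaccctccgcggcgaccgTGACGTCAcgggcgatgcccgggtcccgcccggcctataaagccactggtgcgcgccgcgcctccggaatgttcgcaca
SLC7A11: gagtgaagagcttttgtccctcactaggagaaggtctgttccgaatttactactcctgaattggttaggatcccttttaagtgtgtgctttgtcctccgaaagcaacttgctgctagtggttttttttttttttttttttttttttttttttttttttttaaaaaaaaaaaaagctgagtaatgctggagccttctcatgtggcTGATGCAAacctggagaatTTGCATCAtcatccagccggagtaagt
CHAC1: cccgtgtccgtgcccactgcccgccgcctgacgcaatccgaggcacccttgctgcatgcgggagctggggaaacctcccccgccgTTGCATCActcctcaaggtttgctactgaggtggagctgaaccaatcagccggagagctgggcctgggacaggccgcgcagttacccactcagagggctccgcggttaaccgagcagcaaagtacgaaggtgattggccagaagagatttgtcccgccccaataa
MT1A: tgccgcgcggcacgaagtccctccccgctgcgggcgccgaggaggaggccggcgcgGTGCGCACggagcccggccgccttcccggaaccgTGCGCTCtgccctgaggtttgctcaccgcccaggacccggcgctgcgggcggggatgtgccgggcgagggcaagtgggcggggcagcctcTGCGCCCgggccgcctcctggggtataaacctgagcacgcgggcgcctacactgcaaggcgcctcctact
The matches start 71 bases before the gene start in IL6, 193 in NFKBIA, 79 in AREG, 46 and 27 in SLC7A11 and 165 in CHAC1, while MT1A holds 4, of which a pair overlap. Of 13247 promoters of tested genes, 1.21% held the NF-kB motif, 1.99% the CRE, 1.81% the ATF4 element and 20.0% the short metal response element. The CRE was present in 3.30% of the 606 promoters of genes called up and 0.997% of the 602 of genes called down. The NF-kB motif was present in 1.82% of the promoters called up and 1.33% of those called down. For the ATF4 element these shares were 2.48% and 2.33%, and for the metal response element 16.7% and 15.1%, both under its share of all promoters. A match is a description of the letters and not a shown binding site.

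The lists that follow group genes by known biology but were chosen with earlier results of these data known. Their counts stand beside the 5.50% of all genes called up and 5.56% called down as a description, and are no independent support for a direction. A list's median is that of its tested members' log2 fold changes, against -0.05 over all genes. Members named beside the key genes of a list are there because they were called, so they were chosen after their values were seen. Where leaving out 1 pig ended such a call, the pigs are given beside it.

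**Figure D3:**
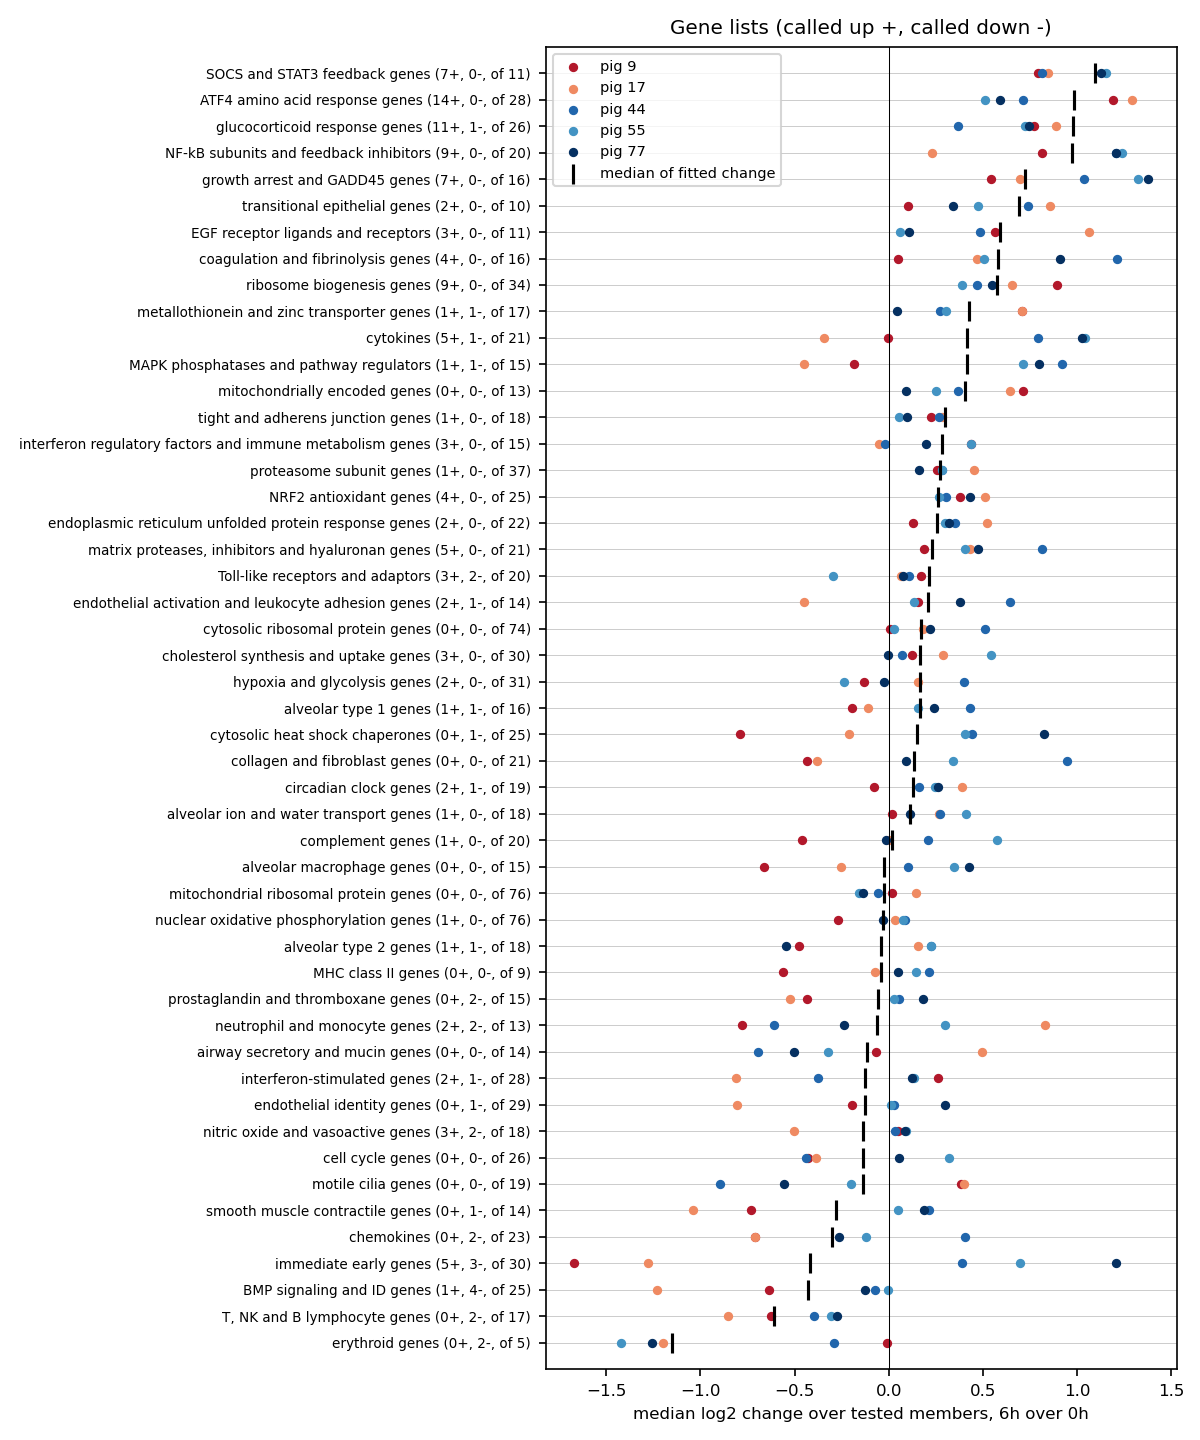
Each row is 1 of the 49 gene lists, with the median log2 change of its tested members in each GS pig (colored points) and the median of the fitted changes (black bar); the counts called up and down stand beside the name. The feedback, amino acid response and glucocorticoid lists lie to the right of 0 in all 5 pigs, and pigs 9 and 17 separate from the others for the immediate early list, where their medians are -1.67 and -1.28.

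Immediate early genes encode transcription factors that stimulated cells transcribe within minutes. Several were already high at 0h, and they divided at 6h. Of 30 tested, 5 were called up and 3 down (median -0.42). EGR1 (ENSSSCG00000014336, chromosome 2, 140441421 to 140445296, plus strand) was at 3799, 1636, 2527, 3639.6 and 2551 CPM at 0h and 81.7, 26, 465, 2343 and 908 CPM at 6h. It was lower at 6h in all lungs, by far the most in pigs 9 and 17 (log2 fold change -3.66 ± 0.98, adjusted p = 0.017). FOS went from 1156, 1291, 788, 804 and 251 CPM to 22.5, 29.8, 189, 417 and 468 CPM, lower in 4 of 5 pigs and higher in pig 77 (-3.34 ± 1.02, adjusted p = 0.03). JUN, the partner of FOS in AP-1, went from 203, 168, 242, 282 and 227 CPM to 26.5, 19.5, 131, 280.0 and 219 CPM and was nearly level in pigs 55 and 77 (-1.56 ± 0.52, adjusted p = 0.041). All 3 of these calls were lost without pig 9 or without pig 17: EGR1 then had an adjusted p of 0.075 and 0.079, FOS of 0.12 and 0.17, and JUN of 0.16 and 0.20, and those of FOS and JUN were also lost without pig 44 (0.068 and 0.078).

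Other members were lower at 6h in pigs 9 and 17 and less so, or higher, in pigs 44, 55 and 77. ATF3, a stress-induced repressor, had log2 ratios of -2.84, -2.79, 0.40, 0.89 and 1.55 (-0.98 ± 0.75, adjusted p = 0.35). NR4A1, an orphan nuclear receptor, had -3.55, -2.9, -0.34, -0.02 and 1.31 (-1.48 ± 0.70, adjusted p = 0.13), and KLF4, a zinc finger factor of endothelium and epithelium, -1.2, -0.44, 1.01, 1.38 and 1.84 (0.37 ± 0.43, adjusted p = 0.55). With pigs 9 and 17 alone, 14 members were called down and 0 up, and with pigs 44, 55 and 77 alone 0 were called down and 11 up. Of all genes in those fits 2.24% and 6.55% were called down and 2.81% and 8.03% up. The members called up in the fit of all 5 pigs, FOSL1, KLF10 (1.8 ± 0.34), MAFF (1.72 ± 0.34), MYC (1.62 ± 0.25) and FOSL2 (1.37 ± 0.17), rose in every lung. MYC, the growth-promoting factor, went from 95.1, 44.1, 103, 96.5 and 86.9 CPM to 159, 86.6, 357, 523 and 447 CPM, with the smaller rises in pigs 9 and 17. KLF2, a flow-induced factor of endothelium, had log2 ratios of -0.38, 0.041, 0.30, 0.30 and 0.81 (0.23 ± 0.18, adjusted p = 0.36).

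**Figure D4:**
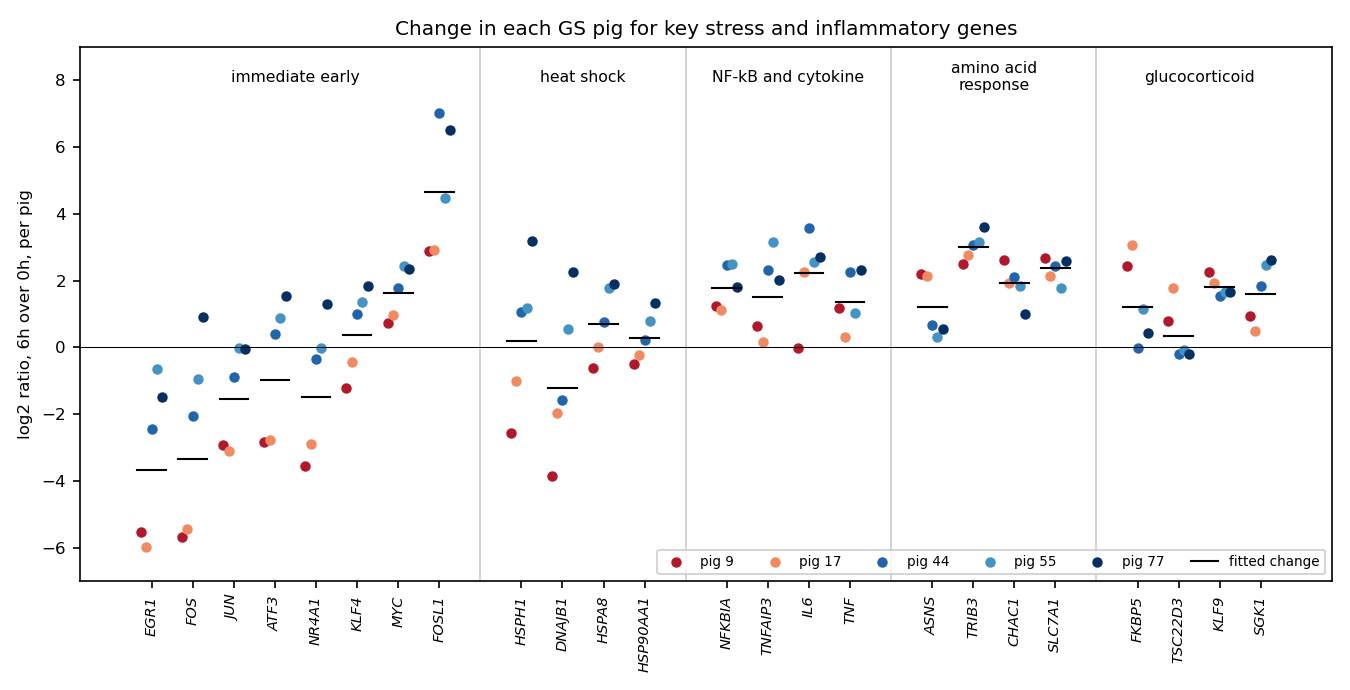
Log2 ratio of 6h to 0h in each GS pig (colored points) and the fitted change (black line) for key genes of 5 groups. Pigs 9 and 17 lie below pigs 44, 55 and 77 for the immediate early genes shown and for HSPH1 and HSP90AA1, and above them for ASNS and FKBP5. For CHAC1 and SLC7A1 pig 9 lies highest and pig 17 among the others.

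Several NF-kB feedback genes rose. NF-kB is the main inflammatory transcription factor, and its target genes include the inhibitors that switch it off again. Of 20 subunits and inhibitors, 9 were called up and 0 down (median 0.97). NFKBIA, the inhibitor that holds NF-kB in the cytoplasm, went from 214, 155, 183, 198 and 333 CPM to 505, 340.4, 1016, 1117 and 1175 CPM, without overlap (log2 fold change 1.77 ± 0.29, adjusted p = 0.0013). BCL3, a nuclear cofactor, went from 17.1, 14.2, 30.4, 37.4 and 33.3 CPM to 62.8, 27.4, 172, 159.7 and 178 CPM (1.97 ± 0.24, adjusted p = 0.0003). NFKBIE (1.8 ± 0.41, adjusted p = 0.0071), NFKBIB (1.43 ± 0.27), ZC3H12A (1.52 ± 0.32), an RNase that degrades cytokine transcripts, RELB (1.16 ± 0.30), TNIP1 (1.11 ± 0.22) and CFLAR (1.09 ± 0.22) also rose. RELB lost its call without pig 44 or 77 (adjusted p = 0.069 and 0.053), and CFLAR was under 2-fold without pig 9 or 17 (log2 fold change 0.88 and 0.96). TNFAIP3, the deubiquitinase A20, had log2 ratios of 0.65, 0.17, 2.33, 3.14 and 2.01 (1.5 ± 0.45, adjusted p = 0.025), and its call was lost without pig 44, 55 or 77 (adjusted p = 0.099, 0.083 and 0.1). The list's median log2 ratio was 0.81, 0.23, 1.21, 1.24 and 1.21, positive in every lung. In pigs 9 and 17 alone 1 member was called up, and in pigs 44, 55 and 77 alone 13, against 2.81% and 8.03% of all genes in those fits.

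Some cytokine genes rose, and no chemokine gene was called up in the fit of all 5 pigs. Of 21 cytokines, 5 were called up and 1 down. IL6, the acute-phase cytokine whose promoter is shown above, went from 3.65, 0.747, 2.38, 2.57 and 1.55 CPM to 3.63, 3.67, 28.3, 15.2 and 10.2 CPM, level in pig 9 and higher in the other 4 (log2 fold change 2.23 ± 0.47, adjusted p = 0.0044). CSF3, the granulocyte growth factor, went from 3.17, 2.9, 3.8, 6.99 and 7.05 CPM to 10.9, 14.7, 55.4, 20.1 and 22.6 CPM, without overlap (2.22 ± 0.39, adjusted p = 0.0019). TNF went from 4.8, 2.93, 3.37, 9.8 and 6.09 CPM to 11, 3.63, 16.1, 20.2 and 30.3 CPM (1.37 ± 0.46, adjusted p = 0.04), and its call was lost when pig 17, 44, 55 or 77 was left out (adjusted p = 0.054, 0.13, 0.088 and 0.13). LIF, a cytokine of the IL-6 family, rose by 1.07 ± 0.29, a call lost without pig 44 (adjusted p = 0.083). The subunits of IL-12 moved apart: IL12A rose from 0.102, 0.405, 0.242, 0.198 and 0.190 CPM to 1.36, 0.637, 0.603, 0.522 and 0.669 CPM (1.74 ± 0.48, adjusted p = 0.017, lost without pig 77, adjusted p = 0.057) and IL12B fell from 2.83, 0.996, 0.348, 0.760 and 0.872 CPM to 0.798, 0.276, 0.0778, 0.112 and 0.130 CPM (-2.26 ± 0.42, adjusted p = 0.0024). IL1B was 3.95, 2.9, 7.53, 5.05 and 3.57 CPM at 0h and 3.43, 0.765, 2.7, 3.86 and 1.51 CPM at 6h (-1.06 ± 0.62, adjusted p = 0.21).

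Of 23 chemokines, 0 were called up and 2 down, and 7 of 23 chemokine promoters (30.4%) held the NF-kB motif. CXCL8, the neutrophil attractant, went from 150.3, 37.4, 183, 45.6 and 172 CPM to 139, 33.3, 136, 103 and 220.1 CPM (0.091 ± 0.42, adjusted p = 0.89). CXCL2 had log2 ratios of -1.37, -0.026, 1.74, 1.42 and -0.26 (0.17 ± 0.47, adjusted p = 0.81), and CCL2, the monocyte attractant, of -2.46, -0.80, 1.34, -0.12 and -1.48 (-0.75 ± 0.44, adjusted p = 0.21, called down without pig 44 at -1.29, adjusted p = 0.041). With pigs 44, 55 and 77 alone CXCL2 was called up (1.04, adjusted p = 0.032). CCL24, an eosinophil attractant chosen after its values were seen, was called up without pig 77 (1.27, adjusted p = 0.016) and not in the fit of all 5 pigs (0.83 ± 0.39, adjusted p = 0.12). CCL20 was at 7.73, 0.778, 0.908, 0.547 and 6.74 CPM and 1.56, 0.234, 0.816, 0.578 and 1.58 CPM (-1.34 ± 0.53, adjusted p = 0.076). With DESeq2 in place of edgeR it was called down (-1.3, adjusted p = 0.028). The fallen members were XCL1, a lymphocyte chemokine, at 4.87, 5.79, 4.84, 2.78 and 2.6 CPM and 1.12, 1.3, 1.57, 2.16 and 1.58 CPM (-1.41 ± 0.30, adjusted p = 0.0049), and CCL21, which guides cells to lymphatics (-1.23 ± 0.37, adjusted p = 0.027, lost without pig 9, 17 or 77, adjusted p = 0.1, 0.1 and 0.079).

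Most tested members of the list of SOCS and STAT3 feedback genes, which also holds cytokine receptor genes, were called up. Of 11 tested, 7 were called up and 0 down (median 1.1, the highest of the 49 lists). SOCS3, the inhibitor of IL-6 receptor signaling, went from 62.1, 49, 54.8, 45.3 and 33.3 CPM to 103, 102, 254, 352 and 334 CPM, without overlap (log2 fold change 1.93 ± 0.37, adjusted p = 0.0028). IL4R went from 91.9, 71.6, 131, 101.4 and 119 CPM to 233, 153, 552, 287 and 592 CPM (1.68 ± 0.26, adjusted p = 0.00095), and CISH from 29.5, 25.1, 40.1, 23.3 and 35.1 CPM to 46.9, 33, 164, 138 and 148 CPM (1.5 ± 0.28, adjusted p = 0.0025). SOCS1 (1.4 ± 0.30), the kinase PIM1 (1.3 ± 0.25), the shared receptor subunit IL6ST (1.1 ± 0.16) and the repressor BCL6 (1.01 ± 0.12) also rose, BCL6 by just under 2-fold without pig 55 or 77 (log2 fold change 0.99 and 0.99).

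Some glucocorticoid target genes rose. Of 26 tested, 11 were called up and 1 down (median 0.98). KLF9, a direct target of the receptor, went from 144, 124, 167, 158 and 166 CPM to 697, 478, 483, 505 and 528 CPM, without overlap (log2 fold change 1.81 ± 0.17, adjusted p = 0.0001). CEBPD (1.52 ± 0.18), ANGPTL4 (1.79 ± 0.25), a lipase inhibitor, SPSB1 (1.55 ± 0.30), ERRFI1 (1.53 ± 0.28), an inhibitor of the EGF receptor, CRISPLD2 (1.25 ± 0.20) and PDK4 (1.27 ± 0.43) rose as well, and PDK4 lost its call without pig 9, 17, 44 or 77 (adjusted p = 0.088, 0.13, 0.056 and 0.06). SGK1, the kinase that promotes sodium uptake, went from 196, 170.2, 267, 197 and 155 CPM to 380.3, 239, 958, 1095 and 949 CPM (1.6 ± 0.31, adjusted p = 0.0029). ALOX15B (1.94 ± 0.42) and IP6K3 (1.97 ± 0.52) rose from low levels, and the call of IP6K3 was lost without pig 17 or 77 (adjusted p = 0.0515 and 0.058). STEAP4, a metalloreductase, fell from 21.4, 15.9, 47, 34.6 and 71 CPM to 10.7, 5.59, 5.0, 8.9 and 9.15 CPM (-2.11 ± 0.30, adjusted p = 0.00063).

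FKBP5, a chaperone that restrains the receptor, was at 299, 116, 467, 94.3 and 318 CPM at 0h and 1619, 964, 466, 210.2 and 432 CPM at 6h. It was far higher at 6h in pigs 9 and 17, less so in pigs 55 and 77 and not in pig 44, whose 0h level was the highest (log2 fold change 1.23 ± 0.47, adjusted p = 0.066, and 1.67, adjusted p = 0.035 without pig 44). DESeq2 called FKBP5 up in the fit of all 5 pigs (1.26, adjusted p = 0.0485). TSC22D3, which encodes GILZ, had log2 ratios of 0.80, 1.77, -0.20, -0.075 and -0.20 (0.34 ± 0.27, adjusted p = 0.37). PER1 (0.79 ± 0.20, adjusted p = 0.011) and ZBTB16 (0.78 ± 0.25, adjusted p = 0.034) differed by less than 2-fold, and without pig 9 and pig 44, respectively, they passed that threshold (1.03, adjusted p = 0.002, and 1.01, adjusted p = 0.026). NR3C1, the receptor itself, showed 0.18 ± 0.14, adjusted p = 0.36. The core of its response element (AGAACA) was in 4.17% of 24 promoters of the list and 8.92% of all.

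In the circadian clock, 2 of 19 members were called up and 1 down. DBP, an output factor of the clock, fell from 22.3, 26.1, 22.7, 41.3 and 15.3 CPM to 2.99, 2.89, 7.68, 13.1 and 4.89 CPM, without overlap (log2 fold change -2.22 ± 0.33, adjusted p = 0.00073). NFIL3, which represses the same sites that DBP activates, went from 83.6, 24.6, 66.2, 33.7 and 36.3 CPM to 97, 57, 246, 417 and 276 CPM (1.86 ± 0.46, adjusted p = 0.011), and its call was lost without pig 44 (adjusted p = 0.0503). CRY1, a core repressor, rose from 11.1, 15.5, 12.3, 11.9 and 25.3 CPM to 40.5, 45.7, 44.5, 23.5 and 49.6 CPM (1.42 ± 0.22, adjusted p = 0.00086). NR1D1 showed -0.37 ± 0.41, adjusted p = 0.53. The 6h biopsy was taken later in the day than the 0h biopsy of the same lung, and time of day and perfusion cannot be told apart here.

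Many genes of the amino acid response rose. ATF4 is the transcription factor that cells translate when amino acids run short or the integrated stress response is active, and its targets import and synthesize amino acids. Of 28 targets, 14 were called up and 0 down (median 0.98). TRIB3, a pseudokinase that feeds back on ATF4, went from 7.6, 6.76, 10.2, 9.53 and 8.31 CPM to 43.4, 46.4, 86.1, 84.4 and 101.3 CPM, without overlap (log2 fold change 3.02 ± 0.25, adjusted p = 5.7e-05). SLC7A1, the cationic amino acid carrier, went from 19.2, 22.3, 32.7, 28 and 30.6 CPM to 124, 98.9, 176, 95.5 and 186 CPM (2.39 ± 0.34, adjusted p = 0.00062). CHAC1, which degrades glutathione, went from 1.19, 1.06, 1.75, 2.23 and 2.39 CPM to 7.34, 4.08, 7.66, 8.04 and 4.8 CPM (1.94 ± 0.34, adjusted p = 0.0017). ATF4 itself rose (1.29 ± 0.19, adjusted p = 0.00075), as did STC2 (2.04 ± 0.39), SESN2 (1.86 ± 0.27), a leucine sensor, SLC3A2 (1.28 ± 0.20), SLC38A2 (1.15 ± 0.18), SLC7A5 (1.07 ± 0.19), CEBPG (1.08 ± 0.13) and the glycyl-tRNA synthetase GARS1 (1.03 ± 0.16, under 2-fold without pig 9 or 17).

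Members of this list differed in which lungs rose most. ASNS, the asparagine synthetase, went from 13.5, 11.4, 10.8, 14.1 and 10.8 CPM to 62.6, 50.4, 17.4, 17.5 and 16 CPM, the rise being steep in pigs 9 and 17 and slight in the others (1.21 ± 0.30, adjusted p = 0.01, and 0.94 without pig 9). SLC7A11, the cystine carrier with a pair of ATF4 elements in its promoter, had log2 ratios of 1.88, 1.59, -0.03, 1.11 and 1.1 (1.12 ± 0.25, adjusted p = 0.0063) and was under 2-fold without pig 9 (log2 fold change 0.96). GDF15, a stress-induced hormone, went from 2.11, 3.3, 3.25, 2.26 and 2.54 CPM to 6.31, 5.95, 8.32, 8.56 and 12.8 CPM (1.58 ± 0.37, adjusted p = 0.0078). MTHFD2, of mitochondrial folate metabolism, showed 0.07 ± 0.14, adjusted p = 0.74. The list's median log2 ratio was 1.19, 1.29, 0.71, 0.51 and 0.59. ATF4 elements were in 2 of 23 promoters of the list.

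Of 22 genes of the unfolded protein response of the endoplasmic reticulum, 2 were called up. HSPA5, the chaperone BiP, went from 1058, 465, 375, 393 and 386 CPM to 1092, 887, 1085, 1051 and 1408 CPM, level in pig 9, which had the highest 0h value (1.08 ± 0.30, adjusted p = 0.019), and the call was lost without pig 17, 44, 55 or 77 (adjusted p = 0.0513, 0.083, 0.073 and 0.08). EIF2AK3, the kinase PERK that leads to ATF4, showed 1.01 ± 0.13, adjusted p = 0.00035 and fell under the 2-fold threshold without pig 17 or 55 (0.93 and 0.99). XBP1 rose by less (0.61 ± 0.12, adjusted p = 0.003), and DDIT3, the apoptosis factor CHOP, was lower at 6h in all lungs (-0.93 ± 0.27, adjusted p = 0.021), past the 2-fold threshold without pig 55 or 77 (-1.08 and -1.0).

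Cytosolic heat shock chaperones divided by pig. Of 25 tested, 0 were called up and 1, HSPA1L, down, and the list's median log2 ratio was -0.79, -0.21, 0.44, 0.40 and 0.82. HSPH1 was at 613, 128, 112, 50.4 and 51.3 CPM at 0h and 104, 64, 233, 114 and 468 CPM at 6h, with the highest 0h level in pig 9. DNAJB1, the co-chaperone of HSP70, was at 1274, 353, 599, 97.7 and 115 CPM and 87.4, 90.5, 203, 142 and 555 CPM. Both were lower at 6h in pigs 9 and 17 and HSPH1 was higher in the others, and neither passed the test (0.18 ± 0.73, adjusted p = 0.88 and -1.23 ± 0.72, adjusted p = 0.22). Without pig 77 DNAJB1 was called down (-1.98, adjusted p = 0.041). HSPA8 had log2 ratios of -0.61, 0.0021, 0.76, 1.78 and 1.89 (0.70 ± 0.32, adjusted p = 0.12) and was called up without pig 9 (1.12, adjusted p = 0.014). The heat shock element (GAANNTTC) was in 9 of 24 promoters of the list (37.5%) and in 4.91% of all.

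Some antioxidant genes of NRF2 rose. NRF2 is the factor that answers oxidants and electrophiles. Of 25 targets, 4 were called up and 0 down. SRXN1, which repairs oxidized peroxiredoxins, went from 17, 10.8, 10.7, 9.73 and 15.9 CPM to 89.2, 109.7, 155, 63.7 and 167 CPM, without overlap (log2 fold change 3.13 ± 0.31, adjusted p = 0.00013). OSGIN1 went from 11.7, 5.45, 17.6, 14.2 and 9.89 CPM to 28.8, 20.7, 92.1, 80.9 and 93.4 CPM (2.24 ± 0.33, adjusted p = 0.00071), and TXNRD1 is described above. HMOX1, heme oxygenase, had log2 ratios of 0.89, 0.49, -0.53, 0.0013 and 1.01 (0.35 ± 0.32, adjusted p = 0.44).

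Of 17 metallothionein and zinc transporter genes tested, 1 was called up and 1 down, with 6 higher by the adjusted p alone, as 13.6% of all genes were. MT1A, described above, was the member called up. MT1X, also described above, rose but is not in this list. SLC30A1, the zinc exporter, showed 0.88 ± 0.17, adjusted p = 0.0027 and passed the 2-fold threshold without pig 9 (1.01). SLC39A10, a zinc importer, fell (-1.14 ± 0.25, adjusted p = 0.0059), by -0.90 without pig 44.

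Of 31 hypoxia and glycolysis genes, 2 were called up and 0 down (median 0.17). HK2, the hexokinase that commits glucose to glycolysis, went from 35.8, 34.2, 33.7, 22.1 and 37.2 CPM to 105, 137, 89.4, 62.5 and 87.3 CPM, without overlap (1.53 ± 0.16, adjusted p = 0.00014). ADM, the vasodilator adrenomedullin that also belongs to the vasoactive list, went from 26.9, 21.6, 11.8, 44.4 and 26.9 CPM to 61.5, 73, 74.2, 113 and 109 CPM, also without overlap (1.74 ± 0.24, adjusted p = 0.0006). VEGFA, the hallmark target of hypoxia-inducible factor, showed -0.16 ± 0.23, adjusted p = 0.65. PFKFB3, an activator of glycolysis, showed 0.97 ± 0.17, adjusted p = 0.0019 and was past the 2-fold threshold without pig 9, 17 or 44 (1.11, 1.08 and 1.04). In cholesterol metabolism 3 of 30 were called up: HSD17B7 (1.33 ± 0.21) and ACAT2 (1.16 ± 0.17) of synthesis and the exporter ABCG1 (1.31 ± 0.22). HMGCS1, an early enzyme of synthesis, was not called (-0.27 ± 0.21, adjusted p = 0.36).

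The EGF receptor ligands AREG, EREG and HBEGF rose. Such ligands are shed by injured epithelium and promote its repair. Of 11 ligands and receptors, 3 were called up and 0 down. AREG (amphiregulin, promoter above) went from 4.36, 0.436, 1.04, 0.714 and 1.24 CPM to 35.9, 10.6, 16.5, 12.6 and 15.4 CPM, without overlap (log2 fold change 3.75 ± 0.44, adjusted p = 0.00027). EREG (epiregulin) went from 63.6, 26.5, 11.7, 16.7 and 23.3 CPM to 174, 142, 163, 169 and 171 CPM, reaching nearly the same level in every lung (2.65 ± 0.39, adjusted p = 0.00073). HBEGF went from 47.8, 29.3, 20.1, 20.7 and 28.5 CPM to 62.1, 47.8, 145, 78.6 and 114 CPM (1.44 ± 0.43, adjusted p = 0.025), a call that was lost without pig 44, 55 or 77 (adjusted p = 0.12, 0.076 and 0.081).

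Some genes of BMP signaling fell. BMP ligands act through SMAD factors, and the ID genes are their most direct targets. Of 25 tested, 4 were called down and 1 up (median -0.43). ID3 went from 149, 212, 216, 149 and 135 CPM to 27.7, 44.7, 36.9, 45.1 and 47.9 CPM and ID1 from 45.7, 47.6, 54.5, 30.2 and 30.5 CPM to 8.7, 22.4, 9.18, 16.9 and 19.3 CPM. Both fell in every lung without overlap (log2 fold changes -2.1 ± 0.22, adjusted p = 0.00013 and -1.57 ± 0.29, adjusted p = 0.0025). HEY1, a target shared with Notch, fell (-1.19 ± 0.37), a call lost without pig 9, 17 or 44 (adjusted p = 0.06, 0.12 and 0.11), as did the BMP antagonist GREM1 (-1.12 ± 0.27, and -0.87 and -0.94 without pig 9 or 17). SMAD6, the feedback inhibitor, had log2 ratios of -3.57, -3.94, -1.28, 1.62 and -0.12 (-1.62 ± 0.67, adjusted p = 0.087), and was called down without pig 55 (-2.25, adjusted p = 0.021). The ligand BMP2 moved the other way, from 8.28, 9.75, 9.49, 10.1 and 11.9 CPM to 21.2, 21.1, 39.6, 39.6 and 56.2 CPM, without overlap (1.75 ± 0.24, adjusted p = 0.00055). With pigs 9 and 17 alone 9 members were called down, and with pigs 44, 55 and 77 alone 2, against 2.24% and 6.55% of all genes in those fits.

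Some growth arrest genes rose. Of 16 tested, 7 were called up and 0 down (median 0.72). CDKN1A, the cyclin-dependent kinase inhibitor p21, went from 56, 35.2, 65.3, 43.5 and 55.1 CPM to 78.8, 83.9, 275, 249.5 and 284 CPM (log2 fold change 1.68 ± 0.29, adjusted p = 0.0017). GADD45B (1.76 ± 0.29, adjusted p = 0.0014) and GADD45G (1.78 ± 0.24, adjusted p = 0.00049) rose with GADD45A, and the apoptosis regulators PMAIP1 (1.15 ± 0.32), BCL2A1 (1.1 ± 0.21) and BCL2L11 (1.08 ± 0.24) rose too. PMAIP1 lost its call without pig 44, 55 or 77 (adjusted p = 0.069, 0.088 and 0.073), and BCL2L11 was under 2-fold without pig 44 or 77 (log2 fold change 0.92 and 0.99). Of 26 cell cycle genes none was called in the edgeR fit of all 5 pigs. By the adjusted p alone 1 was higher and 4 lower, against 13.6% and 14.9% of all genes. MKI67, the proliferation marker, showed -0.29 ± 0.18, adjusted p = 0.23. Among the MAPK phosphatases and regulators 1 of 15, DUSP8 (1.23 ± 0.32, lost without pig 44, 55 or 77, adjusted p = 0.078, 0.061 and 0.067), was called up and SPRY1, an inhibitor of growth factor signaling, down, from 232, 240.2, 107, 353 and 186 CPM to 78.5, 58.7, 83.8, 143 and 101.4 CPM (-1.28 ± 0.27, adjusted p = 0.0048). DUSP1, which inactivates MAP kinases, had log2 ratios of -2.01, -1.44, -0.93, 0.70 and 0.26 (-0.75 ± 0.33, adjusted p = 0.11), and was called down without pig 55 (-1.11, adjusted p = 0.031). The MAPK list's median log2 ratio was -0.18, -0.45, 0.92, 0.72 and 0.80. With pigs 9 and 17 alone 2 members were called down and 0 up (2.24% and 2.81% of all genes in that fit). With pigs 44, 55 and 77 alone 0 were called down and 6 up (6.55% and 8.03%).

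The adhesion gene ICAM1 and some fibrinolysis genes rose. Bulk biopsies cannot tell fewer cells of a type from less RNA per cell. Of 29 endothelial genes 0 were called up and 1 down. With pigs 9 and 17 alone 4 were called down and 0 up (2.24% and 2.81% of all genes in that fit), and with pigs 44, 55 and 77 alone 0 were called down and 3 up (6.55% and 8.03%). CDH5, the junction cadherin, was at 672, 737, 968, 989 and 839 CPM and 739, 518, 998, 880.1 and 1276 CPM (0.018 ± 0.14, adjusted p = 0.94), and PECAM1 showed 0.17 ± 0.12, adjusted p = 0.31. KDR, the main VEGF receptor, fell from 292, 406, 327, 437 and 253 CPM to 129, 105, 168, 205 and 172 CPM, without overlap (log2 fold change -1.15 ± 0.18, adjusted p = 0.0011, and -0.95 without pig 17). Of 14 activation and adhesion genes 2, ICAM1 and EDN1, were called up and 1, APLN, down. ICAM1, which holds leukocytes to the vessel wall, rose from 242, 239, 249.5, 179 and 278 CPM to 833, 429, 1044, 844 and 1400.5 CPM, without overlap (1.86 ± 0.30, adjusted p = 0.0013). VCAM1 showed 0.45 ± 0.23, adjusted p = 0.15. SELE, E-selectin, was at 26.1, 7.35, 3.53, 3.65 and 4.15 CPM and 33, 4.76, 17.4, 83.5 and 56.7 CPM, up steeply in pigs 44, 55 and 77 and down in pig 17 (1.66 ± 0.81, adjusted p = 0.14), and was called up without pig 9 (2.43, adjusted p = 0.034). APLN, a ligand made by tip cells, fell (-1.82 ± 0.46, adjusted p = 0.011), a call lost without pig 17 (adjusted p = 0.0505).

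Of 16 coagulation and fibrinolysis genes 4 were called up and 0 down (median 0.58). PLAT, the tissue plasminogen activator, went from 18, 12.2, 23.1, 21.7 and 30.8 CPM to 93.3, 41.1, 192, 92.3 and 130.5 CPM. It rose in all lungs without overlap (log2 fold change 2.3 ± 0.23, adjusted p = 0.00011). F2RL1, a protease-activated receptor, rose (1.38 ± 0.32, adjusted p = 0.0074), and so did PLAUR, the urokinase receptor (1.02 ± 0.34, adjusted p = 0.037), whose call was lost without pig 44, 55 or 77 (adjusted p = 0.14, 0.087 and 0.16). F3, tissue factor, was higher at 6h in every lung (0.89 ± 0.23, adjusted p = 0.013), under 2-fold, and THBD, thrombomodulin, showed 0.54 ± 0.27, adjusted p = 0.15.

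Vasoactive genes were divided, with 3 of 18 called up and 2 down. EDN1, the vasoconstrictor endothelin, went from 68.4, 43.8, 67.2, 42.9 and 33.1 CPM to 194, 45, 123, 293 and 135 CPM (1.36 ± 0.38, adjusted p = 0.019) and lost its call without pig 44 or 55 (adjusted p = 0.052 and 0.079). AGTR1, the angiotensin receptor, was at 2-fold (1.0 ± 0.24, adjusted p = 0.0094) and under it without pig 9 or 17 (0.92 and 0.80). GUCY1A1, a subunit of the nitric oxide receptor, fell (-1.03 ± 0.19, adjusted p = 0.0026, and -0.83 and -0.98 without pig 17 or 77). NOS1, at 1.29 CPM or less in every library, fell (-2.07 ± 0.72, adjusted p = 0.046), a call lost without pig 9, 17, 44 or 77 (adjusted p = 0.095, 0.073, 0.15 and 0.12). NOS2 (-0.31 ± 0.24, adjusted p = 0.35) and NOS3 (0.68 ± 0.34, adjusted p = 0.15) were not called. Of 15 prostaglandin and thromboxane genes 2 were called down: the receptor PTGER3 (-1.17 ± 0.27, adjusted p = 0.0078, -0.93 without pig 9) and the prostaglandin D synthase HPGDS (-1.64 ± 0.45, adjusted p = 0.017), lost without pig 17, 44 or 77 (adjusted p = 0.082, 0.083 and 0.0515). PTGS2, cyclooxygenase-2, had log2 ratios of -0.75, -0.16, 1.89, 1.1 and 1.87 (0.66 ± 0.39, adjusted p = 0.22) and was called up without pig 9 (1.12, adjusted p = 0.048).

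Alveolar epithelial genes were called about as often as all genes. Surfactant genes were not called: SFTPC was at 2214, 5140.1, 5844, 4831 and 2885 CPM at 6h (-0.028 ± 0.17, adjusted p = 0.92), SFTPB showed 0.018 ± 0.15, adjusted p = 0.94 and SFTPA1 0.10 ± 0.19, adjusted p = 0.73. Of 18 alveolar type 2 genes 1 was called up and 1 down, and of 16 type 1 genes 1 up and 1 down. SLC34A2, the phosphate carrier of type 2 cells, fell from 1124, 1104, 1152, 1444 and 1052 CPM to 275, 344, 909, 1099.9 and 482 CPM, mostly in pigs 9 and 17 (log2 fold change -1.14 ± 0.25, adjusted p = 0.0057, and -0.87 and -0.97 without pig 9 or 17). SLC6A14, an amino acid carrier, rose from 1.74, 1.09, 0.908, 1.46 and 0.713 CPM to 3.99, 9.88, 1.24, 3.77 and 3.37 CPM (1.66 ± 0.36, adjusted p = 0.005). Among the type 1 genes PDPN, podoplanin, rose from 167, 133, 106, 125.7 and 116 CPM to 357, 273, 349, 242 and 297 CPM, without overlap (1.24 ± 0.17, adjusted p = 0.00052), and AKAP5 fell (-1.01 ± 0.22, adjusted p = 0.0049, under 2-fold without pig 44 or 55, -0.87 and -0.94). AGER showed 0.24 ± 0.15, adjusted p = 0.24 and AQP5 0.28 ± 0.15, adjusted p = 0.16.

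Of 10 tested genes of epithelium in transition after injury, 2 were called up, CDKN1A and PLAUR, and the call of PLAUR was lost without pig 44, 55 or 77. By the adjusted p alone 4 were higher, against 13.6% of all genes. KRT8, a keratin of that state, went from 76, 78.1, 78.5, 79.9 and 94 CPM to 125, 231, 160.1, 150.3 and 148 CPM, without overlap and just under 2-fold (0.96 ± 0.16, adjusted p = 0.0013, and 1.07 and 1.04 without pig 9 or 77). Of 18 ion and water transport genes SGK1 was called up. SCNN1A, the sodium channel subunit that clears alveolar fluid, went from 111, 79.8, 144, 108 and 159 CPM to 237, 182, 254, 184 and 207 CPM, without overlap and under 2-fold (0.85 ± 0.13, adjusted p = 0.00077). Of 14 airway secretory and 19 cilia genes none was called in the edgeR fit. By the adjusted p alone 0 and 1 were lower, against 14.9% of all genes. The cilia genes had a median log2 ratio of 0.38, 0.40, -0.90, -0.20 and -0.55, above 0 in pigs 9 and 17 and below in the others.

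Some lymphocyte genes fell. Of 17 lymphocyte genes 0 were called up and 2 down, and 9 were lower by the adjusted p alone (14.9% of all genes were), with a median of -0.61. The summed level of the list was 663 to 856 CPM at 0h and 469 to 635 CPM at 6h, without overlap. MS4A1, the B-cell marker CD20, fell from 15.5, 14.2, 23.8, 12 and 12.8 CPM to 7.02, 4.16, 8.48, 5.91 and 6.96 CPM, without overlap (log2 fold change -1.29 ± 0.25, adjusted p = 0.0031), and PAX5, the B-cell factor, fell too (-1.04 ± 0.30), a call lost without pig 9, 17 or 44 (adjusted p = 0.075, 0.095 and 0.09). CD79A, of the B-cell receptor, fell by less than 2-fold (-0.66 ± 0.16, adjusted p = 0.0099), and CD3E of T cells showed -0.45 ± 0.17, adjusted p = 0.063. 

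Erythroid genes were near the floor. Their share of counts was 0.00120% ± 0.000569 at 0h and 0.000547% ± 0.000139 at 6h, lower in 5 of 5 pigs (exact paired permutation p = 0.0625, the smallest possible). HBB, beta globin, was at 0.409, 9.81, 2.53, 8.62 and 3.85 CPM and 0.439, 1.02, 2.2, 2.18 and 0.911 CPM, lower in 4 of 5 pigs (log2 fold change -1.57 ± 0.47, adjusted p = 0.025), and its call was lost without pig 17, 55 or 77 (adjusted p = 0.068, 0.077 and 0.099). EPB42, of the red cell skeleton, fell in all 5 (-1.37 ± 0.30, adjusted p = 0.0059).

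Myeloid genes went both ways. Of 13 neutrophil and monocyte genes 2 were called up and 2 down. CD14, the co-receptor for endotoxin, rose from 28.7, 22.9, 51.4, 18.4 and 28.1 CPM to 65.6, 61.7, 93.6, 54.3 and 76.2 CPM, without overlap (log2 fold change 1.28 ± 0.22, adjusted p = 0.0016). IL1R2, a decoy receptor for IL-1, rose from 0.818, 1.06, 7.23, 3.57 and 5.71 CPM to 8.54, 10.7, 12.6, 5.43 and 18.2 CPM (1.72 ± 0.52, adjusted p = 0.027), a call lost without pig 9, 17 or 77 (adjusted p = 0.055, 0.11 and 0.077). CCR2, the chemokine receptor of classical monocytes, fell from 30.1, 33.5, 40.03, 51.7 and 49.6 CPM to 17.5, 21.3, 16.2, 18.9 and 18.7 CPM, without overlap (-1.12 ± 0.20, adjusted p = 0.002). S100A8 showed -0.064 ± 0.39, adjusted p = 0.92 and S100A9 0.12 ± 0.27, adjusted p = 0.77. Of 15 alveolar macrophage genes none was called in the edgeR fit, nor did any pass by the adjusted p alone. MARCO had log2 ratios of -0.36, -1.46, -0.12, 1.22 and 1.29 and C1QA of -0.66, -0.97, 0.15, 0.79 and 0.93, lower in pigs 9 and 17 than in 55 and 77.

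Receptors and effectors of innate immunity moved singly. Among 20 Toll-like receptor genes TLR1 (-1.39 ± 0.22, adjusted p = 0.00098) and TLR10 (-1.76 ± 0.42, adjusted p = 0.0086) fell, while CD14, TICAM1 (1.07 ± 0.30) and IRAK2 (1.0 ± 0.20) rose, the last at the 2-fold threshold and under it without pig 9, 44 or 77 (1.0, 0.95 and 0.91). The calls of TICAM1 and of IRF1, an interferon regulatory factor, were each lost without pig 44, 55 or 77 (adjusted p = 0.096, 0.072 and 0.099 for TICAM1 and 0.076, 0.079 and 0.099 for IRF1). TLR4, the endotoxin receptor, showed 0.29 ± 0.13, adjusted p = 0.1 and TLR2 0.13 ± 0.18, adjusted p = 0.61. Of 28 interferon-stimulated genes IRF9 (1.13 ± 0.28, adjusted p = 0.01) and IRF1 (1.1 ± 0.32, adjusted p = 0.023) rose and DDX60 fell (-1.33 ± 0.35, adjusted p = 0.014). ISG15 (0.56 ± 0.37, adjusted p = 0.28) and IFIT1 (-0.52 ± 0.28, adjusted p = 0.17) were not called, although 12 of 27 promoters of that list (44.4%) held the response element (TTTCNNTTT) against 8.48% of all. Of 9 MHC class II genes none was called in the edgeR fit. By the adjusted p alone 1, CIITA (-0.41 ± 0.14, adjusted p = 0.04), was lower, against 14.9% of all genes. Of 20 complement genes CD46, a complement inhibitor on cell surfaces, rose in every lung, from 196, 203, 189, 169 and 229.9 CPM to 390.0, 370.0, 405, 364 and 476 CPM (1.02 ± 0.11, adjusted p = 0.00014), and C3 showed -0.12 ± 0.21, adjusted p = 0.7.

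Some enzymes of arginine and NAD metabolism rose, the 3 members called in a list of 15 interferon regulatory factors and immune metabolism genes. The calls of IRF1 and IRF9 given above belong to the interferon-stimulated list and are not among these 3. ARG1, arginase, went from 76.1, 35.6, 21.2, 17.6 and 28.9 CPM to 103, 97.4, 163, 128 and 157 CPM, without overlap (log2 fold change 1.99 ± 0.35, adjusted p = 0.0019), and ARG2 from 3.2, 2.09, 2.16, 1.98 and 2.01 CPM to 5.67, 6.94, 6.12, 3.66 and 7.42 CPM (1.39 ± 0.26, adjusted p = 0.0027). NAMPT, the rate-limiting enzyme of NAD salvage, went from 109, 58.3, 71.7, 77.9 and 85.3 CPM to 485, 212, 229.5, 274 and 366 CPM, also without overlap (1.94 ± 0.16, adjusted p = 5.7e-05). SOD2, the mitochondrial superoxide dismutase, was higher in all lungs (0.94 ± 0.22, adjusted p = 0.0087) and past the 2-fold threshold without pig 55 or 77 (1.05 and 1.15). ACOD1, which makes itaconate, had log2 ratios of 2.8, -0.17, -0.55, 0.17 and 0.22 (0.57 ± 0.52, adjusted p = 0.43).

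Some matrix remodeling genes rose, and none of the listed collagen genes was called in the fit of all 5 pigs. Of 21 remodeling genes 5 were called up and 0 down. TIMP1, an inhibitor of metalloproteinases, went from 48.2, 22.7, 44.5, 45.8 and 47 CPM to 105, 79, 278, 165 and 249 CPM, without overlap (log2 fold change 2.01 ± 0.25, adjusted p = 0.00035), and the aggrecanase ADAMTS4 from 4.02, 5.2, 15.9, 10.7 and 8.78 CPM to 6.83, 11.2, 137, 101.2 and 95.8 CPM (2.37 ± 0.38, adjusted p = 0.0012). TNFAIP6 (1.24 ± 0.30), HAS1 (1.18 ± 0.20) and HYAL2 (1.07 ± 0.21), which bind, make and cleave hyaluronan, also rose. The call of TNFAIP6 was lost without pig 44 (adjusted p = 0.0502), without the pig as a block (0.3) and with all 27 libraries in 1 fit (0.28). Of 21 collagen and fibroblast genes none was called in the edgeR fit and none passed by the adjusted p alone. COL1A1 had log2 ratios of -1.07, -0.86, 2.14, 0.70 and 0.35 (0.24 ± 0.39, adjusted p = 0.68), and was called up with pigs 44, 55 and 77 alone (1.15, adjusted p = 0.024). Smooth muscle genes had a median log2 ratio of -0.73, -1.04, 0.22, 0.05 and 0.19, negative in pigs 9 and 17, and ACTA2 one of -1.19, -1.99, 0.57, 0.47 and 0.31 (-0.38 ± 0.33, adjusted p = 0.41). LMOD1 was called down (-1.08 ± 0.27, adjusted p = 0.011, and -0.81 and -0.99 without pig 9 or 17).

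Some genes of ribosome assembly rose, and none of the ribosomal protein genes was called. Of 34 ribosome biogenesis genes 9 were called up and 0 down, and 20 were higher by the adjusted p alone, against 13.6% of all genes. GNL3, nucleostemin, went from 40.8, 24.4, 24.9, 27.6 and 27.2 CPM to 144, 86.1, 66.3, 61.1 and 80.8 CPM (log2 fold change 1.56 ± 0.18, adjusted p = 0.00025), DDX21, a nucleolar helicase, from 189, 128, 122, 116 and 141 CPM to 628, 332, 311, 316 and 441 CPM (1.52 ± 0.16, adjusted p = 0.00015) and NOP56, of the snoRNP core, from 108, 78.1, 93.6, 105 and 94.7 CPM to 212, 142, 230.3, 208 and 264 CPM (1.12 ± 0.16, adjusted p = 0.00071). These rises were without overlap between the times. Of 74 cytosolic ribosomal protein genes none was called in the edgeR fit, with 5 higher by the adjusted p alone. The 76 mitochondrial ribosomal protein genes had 0 calls and a median of -0.026, with 9 higher and 9 lower by the adjusted p alone. Of 37 proteasome genes PSMD12 was called up (1.23 ± 0.16, adjusted p = 0.00041), and by the adjusted p alone 16 were higher and 3 lower, against 13.6% and 14.9% of all genes. Of 76 nuclear genes of oxidative phosphorylation the testis-type subunit COX6B2 was called up, at 1.45 CPM or less (1.35 ± 0.34, adjusted p = 0.011), a call lost without pig 44 or 77 (adjusted p = 0.054 and 0.071). Of 13 mitochondrially encoded genes 8 were higher by the adjusted p alone, against 13.6% of all genes, with a median of 0.40. Their median log2 ratio was 0.71, 0.64, 0.37, 0.25 and 0.094. The largest change was in ND2 (0.95 ± 0.11, adjusted p = 0.0003), which passed the 2-fold threshold without pig 77 (log2 fold change 1.02).

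Some calls among the genes named above also rested on how the libraries were fitted. Upper-quartile scaling in place of TMM put AGTR1, BCL6, CD46, EIF2AK3, IRAK2 and PLAUR just under 2-fold. DESeq2 in place of edgeR put AKAP5 and GUCY1A1 just under 2-fold. So did DESeq2 size factors in edgeR, and a filter of at least 10 counts in every library of a time, which also ended the call of PAX5. With all 27 libraries in 1 fit the calls of AGTR1, AKAP5, CCL21, CFLAR, COX6B2, CRY1, DDX60, EDN1, GDF15, GREM1, HBB, HEY1, IL6ST, IRAK2, JUN, KDR, LIF, LMOD1, NOS1, PAX5, PDK4, PLAUR, PMAIP1, PSMD12, PTGER3, SLC34A2, SLC39A10, SLC6A14, SLC7A11, TICAM1, TLR10, TNF and TNFAIP6 were lost. Without the pig as a block those of AKAP5, APLN, CCL21, CFLAR, CRISPLD2, CYP1A1, DDX60, EGR1, FOS, HBB, HEY1, HPGDS, IL12B, IL1R2, IP6K3, IRF1, JUN, LIF, LMOD1, NOS1, PAX5, PIM1, PLAUR, PMAIP1, SLC34A2, SLC39A10, SLC7A11, SOSTDC1, TICAM1, TLR10, TNF, TNFAIP6 and ZNF891 were lost. With the 10 libraries of 0h and 6h alone those of AKAP5, CCL21, FOS, GUCY1A1, HBB, JUN, NOS1, PAX5, PDK4 and SOSTDC1 were lost, and with no filter on low counts those of AKAP5, CCL21, CYP1A1, EDN1, EGR1, FOS, HBEGF, HEY1, IL1R2, IRF1, JUN, NOS1, PDK4, PLAUR, SOSTDC1, TNF and TNFAIP3.

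The same lungs were sampled again at 12h. Both times are read against the same 0h libraries and are therefore given side by side only. The log2 fold changes at 6h and 12h were 2.77 and 3.07 for GADD45A, 3.89 and 3.34 for MT1X, 3.75 and 3.94 for AREG, -3.66 and -3.71 for EGR1, -3.44 and -3.29 for B3GALT2, -2.1 and -1.86 for ID3 and 2.23 and 2.13 for IL6. Tested directly, 12h differed from 6h in 0 of 18594 genes at an adjusted p under 0.05 (edgeR, with 882 at an unadjusted p under 0.05).

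The 6h change in GS was compared with that of the dialyzed lungs. The PD libraries were shallower (14.7M to 21.8M counts) and came from 4 other pigs, so group and library depth cannot be told apart. PD alone gave 22 calls among 15545 genes (0.142%), 21 of them up. The interaction of group and time was past an adjusted p of 0.05 for 0 of 17884 genes in edgeR (0.00%), with 1046 genes at an unadjusted p under 0.05, and for 7 genes in DESeq2. Without PD pig 2 edgeR gave 254 genes, and without any other pig 0. The log2 fold changes in GS and PD were 2.77 and 3.28 for GADD45A, 3.02 and 2.73 for TRIB3 and 4.99 and 5.26 for MT1A. Those of IL6 were 2.23 and 3.77, of TNF 1.37 and 3.2, of IL1B -1.06 and 3.31, of SELE 1.66 and 4.72 and of EGR1 -3.66 and 1.98. In the edgeR fit of PD alone the adjusted p was 0.0102 for GADD45A, 0.034 for MT1A and 0.018 for IL6 and for TNF. The PD changes of IL1B (adjusted p = 0.13) and EGR1 (adjusted p = 0.58) did not pass in that fit. In the edgeR fit of all pigs the smallest adjusted p of a difference between groups was 0.783.

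**Figure D5:**
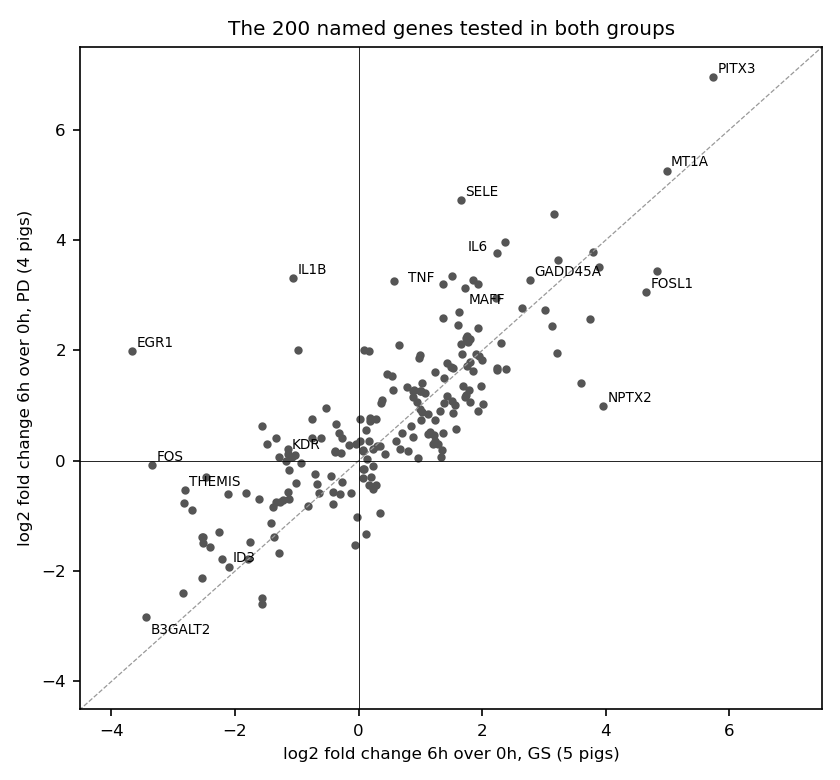
Each point is 1 of the 200 named genes tested in both groups, with its log2 fold change at 6h over 0h in GS on the x axis and in PD on the y axis; the dashed line marks equal change. MT1A, GADD45A and ID3 lie near the line, while EGR1, IL1B and SELE lie above it, without a difference past the adjusted p.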

How the data were processed

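RNA from biopsies of perfused pig lungs was sequenced as stranded, paired-end mRNA libraries on a NextSeq 500. The authors trimmed the reads with Cutadapt, mapped them with TopHat2 to Sscrofa11.1 and deposited 1 table of raw counts per gene (Ensembl annotation). The submitters' processing notes also name featureCounts of Subread and DESeq2, and whether counting used strand is not given in the sources used here. No values were normalized by the authors in this table.

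From these counts, edgeR 4.0.16 (R 4.3.3) fitted the 15 GS libraries (0h, 6h and 12h) after filterByExpr and TMM scaling, with terms for pig and time, and the quasi-likelihood F test was read for 6h against 0h. Calls required a 2-fold change beside an adjusted p (Benjamini-Hochberg) under 0.05. Errors, unless named SD, are approximate standard errors, the size of the log2 fold change divided by the square root of the F statistic. Log2 ratios of single pigs had 0.5 added to each count. The pig numbers pair the libraries because the same lung was sampled at each time, and the residuals of the 0h and 6h libraries of a pig correlated at 0.381 to 0.568. The comparison with PD used the interaction of group and time.

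Alternatives were DESeq2 1.42.0, other scalings, filters, fold thresholds and sample sets, no replicate block, and leaving out each pig. Fits of pigs 44, 55 and 77 and of pigs 9 and 17 alone were chosen after seeing the data. Genes named in the text are the 12 largest rises and 12 largest falls among called genes with a symbol, the same direction in all 5 pigs and a mean of at least 1 CPM, the 3 smallest p in each direction, the key members of each list and, per list and direction, the 3 called members with the largest change and the same direction in all 5 pigs. Other names were chosen after their values were seen, and a few genes that the rule names are not reported here. The members and the 49 lists were chosen with earlier results of these data known. SLC2A1, MT2A and HAS2 were not matched by symbol to a tested gene, although the tested MT1X is described in the annotation as a metallothionein-2A. Promoters were read for 13247 of 14243 tested protein-coding genes with a symbol. The scripts were tested on simulated data. The 10 GS libraries compared held 26.3M to 62.3M counts, and since reads carry no molecular identifiers, depth bounds counting error only.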

Additional observations from a re-analysis of the deposited data

Results flagged for a closer look

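In 203 named genes and the library measures, the log2 ratios of the 5 GS pigs were searched for a pig that stood far from the other 4 (Dixon's test at 95%). Chance alone marks about 1 in 20 such groups. NPTX2 rose by 2.48 on the log2 scale in pig 55 and by 3.86 to 4.41 in the others. Pig 44 stood apart for F3 and CD79A: F3 had a log2 ratio of 1.68 there against 0.61 to 0.77 in the others and CD79A one of -1.03 against -0.61 to -0.49. Pig 9 stood apart for ALAS2, the erythroid heme synthesis enzyme, with 4.14 against -1.76 to -0.29, where its 0h library held 0 counts of the gene, and for ACOD1 with 2.80 against -0.55 to 0.22. The library of pig 17 held 14.9M (mega) more counts at 6h than at 0h, while in the other pigs the difference was -5.26M to -0.868M.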

How the results depend on the processing

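No called gene named in the text changed direction under the alternatives tried. In the fit of pigs 9 and 17 alone, which tested 17339 genes, 24 of the 2057 called genes had the other sign. By the mean log2 ratio of these 2 pigs, 1001 of the 1023 called rises and 1024 of the 1034 called falls kept their sign. Without the replicate block, which discards the pairing of libraries by pig, 1123 genes were called (661 up and 462 down), of which 1101 were also called with it. All 27 libraries in 1 fit gave 1219 (647 and 572). With no fold change threshold 5295 genes were called (2533 up, 2762 down) and 334 list members, and with a fold change of at least 1.5 4037 (1889 and 2148) and 257 list members, against 144 members at 2-fold. DESeq2, other scalings and other filters gave 1751 to 2216 calls. Leaving out 1 pig gave 1318 (without pig 44) to 2148 calls, 698 to 1205 up and 620 to 986 down, 132 to 152 list members and 104 to 119 of the named genes, against 123. Pigs 9 and 17 alone gave 876 calls (488 up, 388 down) and 73 of the named genes, and the cause was not tested. For the difference between GS and PD, DESeq2 called 7 genes, and leaving out 1 pig gave 0 to 254, the highest without PD pig 2. The PD libraries held 14.7M to 21.8M counts, and the part of depth in that comparison was not tested. For a single value, 5 pairs cannot reach an exact p under 0.0625.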
